A study of Drosophila melanogaster and Drosophila melanogaster
Drosophila virilis and Drosophila virilis with 9 samples.

Results

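The mitochondrial genome of *Drosophila melanogaster* was followed through 37 transcripts, all genes of the deposited Drop-seq tables whose symbol starts with mt:, out of 15600 *D. melanogaster* genes in those tables. They comprise 13 protein-coding genes, 2 ribosomal RNAs (mt:lrRNA and mt:srRNA, the large and small subunit RNAs of the mitochondrial ribosome) and 22 transfer RNAs. The choice used symbols only and no measured value. All 37 could be placed in the BDGP6.54 annotation, and all lie on its mitochondrial contig (MT). Averaged over 7 libraries, 20 transcripts reached 10 CPM, where CPM are UMI counts on *D. melanogaster* genes scaled to the same total in every library. These were the 13 protein-coding genes, both rRNAs and 5 tRNAs.

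The study profiled stage 6 embryos, at the onset of gastrulation, by Drop-seq, in which a droplet joins 1 cell to a bead carrying a barcode and each captured RNA carries a unique molecular identifier (UMI). There were 2 mixed-species libraries (replicates 1 and 2) that combined *D. melanogaster* with *D. virilis* embryos. The other 5 were single-species libraries (replicates 3 to 7) of *D. melanogaster*. Every *D. melanogaster* sample, bulk included, came from 1 strain with the y1 and w1118 alleles and the transgenes P{st.2::Gal4} and P{vnd::dsRED}. There was 1 bulk poly(A) library of intact, unfixed embryos for each species, made from 200 ng of RNA. Cells for Drop-seq came from hand-picked whole embryos, were passed through a 20 µm strainer after mechanical dissociation and were fixed in 80% methanol. Eggs were laid over 1 h and aged for 2.5 h (*D. melanogaster*) or 3.5 h (*D. virilis*). Embryos were pooled in each library, and the labels name no separate parents or collections, so the spread between libraries may be technical.

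The mitochondrial genome encodes core subunits of the respiratory chain and of ATP synthase, and the rRNAs and tRNAs needed to translate them. Its genes are transcribed from both strands as long precursors that are cut at the tRNAs lying between them, so processing and stability can separate the levels of neighbours. The early fly embryo inherits its mitochondria and their RNA from the egg. Both assays capture poly(A) tails, and the mitochondrial mRNAs and large rRNA of *Drosophila* carry such tails.

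The 7 Drop-seq libraries held 8855169 to 21429520 UMIs, and 7977 barcodes were taken as *D. melanogaster* cells. These had at least 1000 UMIs, and of their UMIs outside mt: genes at least 90% lay on *D. melanogaster* genes. Up to 1568 such cells came from a library, with median depths of 1936 to 6307 UMIs. No pair of libraries shared more than 5 barcodes. Replicate 3, labelled as *D. melanogaster* only, also held 29225 UMIs of *D. virilis* and 1 barcode called as a *D. virilis* cell, while replicates 4 to 7 held none. In bulk, 6608592 reads of *D. melanogaster* fell on genes.

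Mitochondrial transcripts took 13.1% ± 1.10 of all *D. melanogaster* UMIs (SD, n = 7 libraries). The share was 12.5% and 11.3% in the mixed-species libraries and 13.7%, 13.7%, 14.2%, 12.1% and 13.8% in the single-species libraries. Replicate 6 at 12.1% lay below the other single-species libraries and below replicate 1, so the kinds of library overlapped. Their means differed by −1.64 percentage points (mixed minus single, two-sided exact permutation test, p = 0.0952, where the smallest p that 2 against 5 libraries allow is 0.0476). None of the 7977 cells lacked a mitochondrial UMI. In single cells the share varied widely, with a 5th percentile of 6.77% ± 1.43 and a 95th percentile of 28.1% ± 2.95 (SD over 7 libraries).

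The large rRNA dominated. The gene mt:lrRNA (MT:12735-14058, minus strand, 1324 bases) held 8.07% ± 1.2 of all UMIs (SD, n = 7) and 62.4% of the mitochondrial UMIs pooled over libraries, and it ranked first among all genes in Drop-seq. It accounted for 6.88% and 6.56% of UMIs in the mixed-species libraries and for 8.70%, 8.93%, 9.50%, 7.04% and 8.86% in the single-species libraries. These ranges did not overlap (two-sided exact permutation test, p = 0.0476, the smallest possible here). Without mt:lrRNA the other 36 genes took 4.99% ± 0.31, with 5.61% and 4.72% in mixed-species and 4.73% to 5.07% in single-species libraries, and there the kinds of library overlapped (p = 0.429, same exact permutation test). The small subunit RNA mt:srRNA (MT:14131-14916, minus strand) reached 632 ± 282 CPM, between 237 and 1034 CPM over the libraries.

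**Figure D1:**
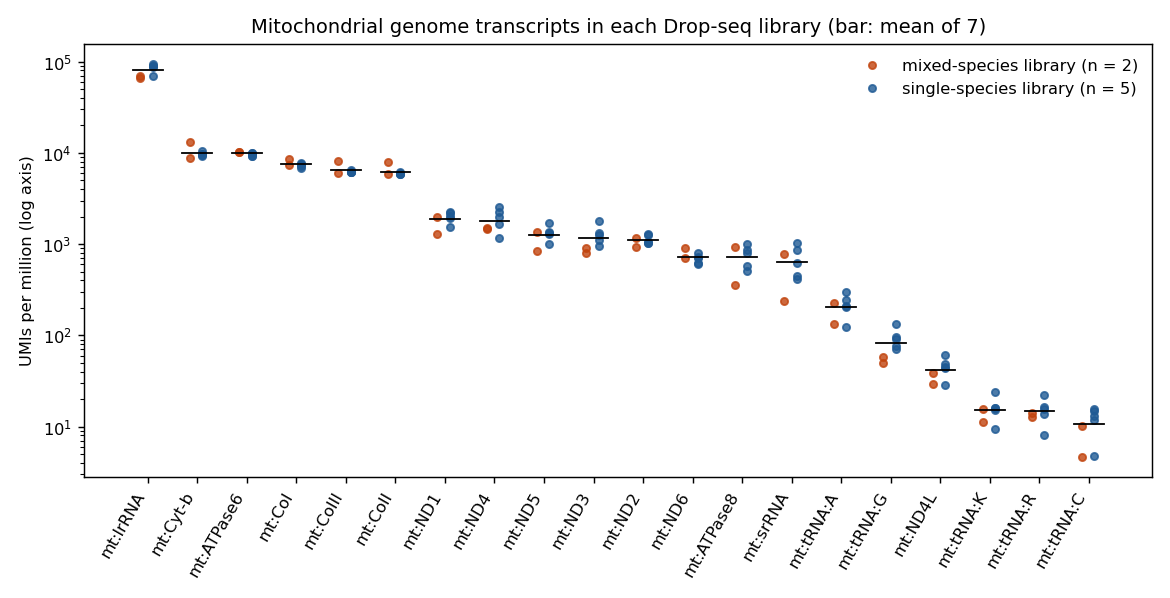
CPM (log axis) of the 20 mitochondrial transcripts with at least 10 CPM on average, 1 point per Drop-seq library, with the mean of 7 libraries as a bar and the kind of library in colour. The large rRNA at a mean of 80675 CPM stands above 5 protein-coding genes between 6230 and 10063 CPM, and mt:ND4L, at 42.0 CPM, has the lowest count of the 13 protein-coding genes.

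Among the protein-coding genes, mt:Cyt-b, mt:ATPase6 and the cytochrome oxidase genes were the most often counted. The transcript of mt:Cyt-b, the mitochondrially encoded cytochrome b of complex III, had 8822 CPM in its lowest library, a median of 9598 CPM and 13147 CPM in its highest, replicate 1. The transcript of mt:ATPase6, a proton channel subunit of ATP synthase, ranged from 9200 through a median of 10070 to 10343 CPM and had the smallest coefficient of variation of the 13, at 4.64%. Its overlapping partner mt:ATPase8, another ATP synthase subunit, ranged from 360 through 791 to 999 CPM. The annotation lets mt:ATPase8, mt:ATPase6 and mt:CoIII overlap at their borders, with no tRNA between them. How the counting split reads between them is uncertain, and the part of shared transcripts was not tested.

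The 3 cytochrome oxidase subunits, which form the catalytic core of complex IV, had similar levels. mt:CoI ranged from 6885 through a median of 7403 to 8551 CPM. mt:CoII ranged from 5803 through 5931 to 7937 CPM. mt:CoIII ranged from 6050 through 6168 to 8131 CPM. For each of these 3 and for mt:Cyt-b the highest library was replicate 1, one of the mixed-species libraries.

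The 7 NADH dehydrogenase subunits of complex I were all lower than these. mt:ND1 ranged from 1292 through a median of 1992 to 2269 CPM, mt:ND4 from 1172 through 1674 to 2522 CPM, and mt:ND5 from 843 through 1336 to 1693 CPM. Then followed mt:ND3, from 794 through 1105 to 1797 CPM, mt:ND2, from 930 through 1066 to 1288 CPM, and mt:ND6, from 607 through 707 to 915 CPM. mt:ND4L, which overlaps mt:ND4 in the annotation, ranged from 28.9 through 43.7 to 60.9 CPM. No tRNA lies between mt:ND4L and mt:ND4, and the part of a shared transcript in its low count was not tested. From mt:ND1 to mt:ND2, neighbours in this order overlapped in their ranges over libraries, whereas mt:ND6 lay below mt:ND2, and mt:ND4L below mt:ND6, without overlap.

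A UMI counts a captured 3′ end and not length, so the counts above need no correction for length. Dividing them by gene length favours short genes and is given only as a description. Per kilobase of gene, mt:lrRNA remained first at 60933 CPM per kb, followed by mt:ATPase6 (14608), mt:CoII (9095), mt:Cyt-b (8850), mt:CoIII (8194) and mt:CoI (4900 CPM per kb). The lowest protein-coding gene per kilobase was again mt:ND4L at 144 CPM per kb. The 9 protein-coding genes on the plus strand together took 4.39% ± 0.36 of UMIs and the 4 on the minus strand (mt:ND1, mt:ND4, mt:ND4L and mt:ND5) 0.50% ± 0.096 (SD, n = 7).

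Transfer RNA genes were rare, at 0.0372% ± 0.0109 of UMIs for all 22. mt:tRNA:A (alanine) had 205 ± 61.0 CPM and mt:tRNA:G (glycine) 82.4 ± 28.2 CPM, followed by mt:tRNA:K at 15.3 ± 4.64, mt:tRNA:R at 14.6 ± 4.2 and mt:tRNA:C at 10.7 ± 4.45 CPM. The other 17 tRNAs had means of 0.229 to 8.30 CPM. mt:tRNA:A (MT:5983-6047) starts 21 bases after the end of mt:ND3 on the same strand, and its UMIs were 12.9% to 28.4% as many as those of mt:ND3. mt:tRNA:G (MT:5543-5607) starts 18 bases after mt:CoIII, and its UMIs were 0.713% to 2.17% as many as those of mt:CoIII. Whether such UMIs came from tRNA or from the tail of the gene before it was not tested.

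Averaged over libraries, the share of mt:lrRNA was lower in deeper cells from 2000 UMIs on, although in replicates 4, 5 and 6 it was higher at 5000 to 10000 than at 2000 to 5000 UMIs, while that of the other mitochondrial transcripts stayed within a narrower range. mt:lrRNA took 10.8% ± 1.97 of UMIs in cells of 1000 to 2000 UMIs, 12.3% ± 2.33 at 2000 to 5000, 11.6% ± 2.65 at 5000 to 10000, 9.27% ± 2.03 at 10000 to 20000, 7.14% ± 1.40 at 20000 to 40000 and 4.72% ± 0.73 from 40000 UMIs on (SD, n = 7 libraries). Over the same classes the other 36 genes took 4.62%, 5.26%, 5.6%, 5.19%, 4.74% and 4.57%. The median count of mt:lrRNA UMIs per cell was higher in each deeper class, from 150 ± 40.4 to 3092 ± 484 between the first and last of these classes. The deepest class held 324 cells, with only 5 in its smallest library. In cells thinned to 3000 UMIs, Spearman's rho between a cell's mt:lrRNA count and its full depth was −0.52 on average over libraries (−0.67 to −0.36), and −0.08 for the other mitochondrial genes. These values describe cells of 7 libraries that share library and depth, and carry no test.

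The kinds of library differed at matched depth. At 5000 to 10000 UMIs, mt:lrRNA took 7.32% and 8.19% of UMIs in the mixed-species libraries and 12.3% to 13.6% in the others. The difference was −5.34 percentage points with no overlap (two-sided exact permutation test, p = 0.0476, the smallest possible). The other 36 genes took 5.16% and 5.75% against 5.55% to 5.78%, which overlapped (p = 0.333, same exact test). mt:lrRNA did not overlap in the other 4 depth classes from 2000 UMIs on either, and it did at 1000 to 2000 UMIs. The other 36 genes did not overlap at 1000 to 2000 UMIs, where they were higher in mixed-species libraries, nor at 10000 to 20000 UMIs, where they were lower. This depth window was chosen after the data were seen. The presence of *D. virilis* cells, the preparation and the sequencing run cannot be told apart between these kinds of library.

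**Figure D2:**
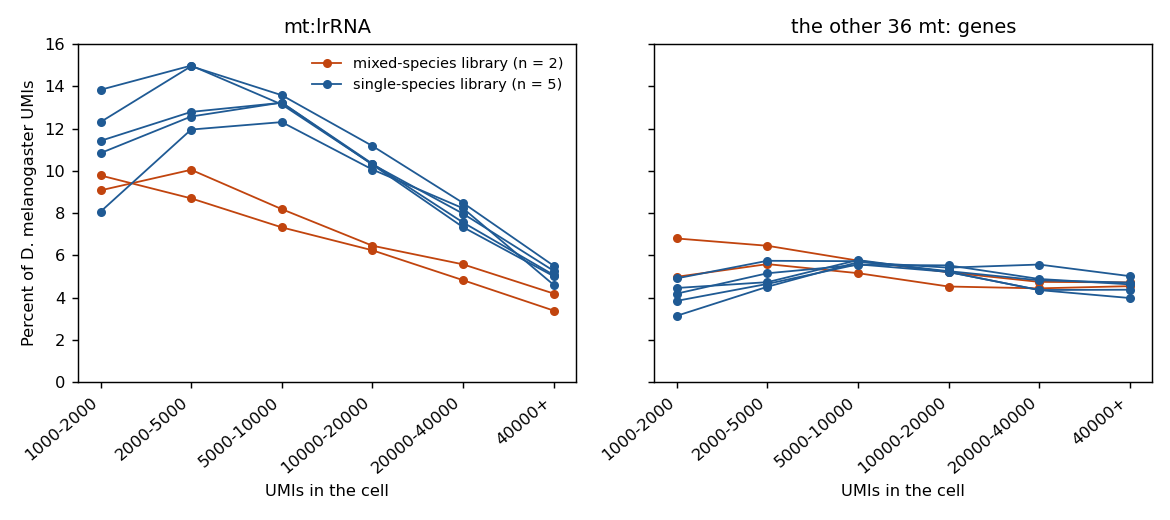
Percent of *D. melanogaster* UMIs on mt:lrRNA (left) and on the other 36 mt: genes (right) against the depth class of the cell, 1 line per library. From 2000 UMIs on, both mixed-species lines for mt:lrRNA lie below all single-species lines, whose mean falls from 13.4% to 5.09%.

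In the test across all genes, edgeR's quasi-likelihood F test called 0 of 33 mitochondrial transcripts tested between mixed-species and single-species libraries, where 0% of 8198 genes were called. At an unadjusted p under 0.05 it found 4 of the 33 and 384 of all genes, and DESeq2 called 1 and 8. For mt:lrRNA this fit gave −0.32 ± 0.13 on the log2 scale (SE, adjusted p = 0.966 by edgeR). In 5 of the 33 transcripts the libraries did not overlap in CPM, which were mt:lrRNA, mt:ND3, mt:tRNA:G and mt:tRNA:L:CUN, lower in mixed-species libraries, and mt:ATPase6, higher there. Over all 8198 genes 9.55% did not overlap. mt:ND3 measured 794 and 900 CPM in mixed-species and 944 to 1797 CPM in single-species libraries (log2 change −0.55 ± 0.17, edgeR adjusted p = 0.966), and mt:tRNA:G −0.76 ± 0.18 (edgeR adjusted p = 0.876, DESeq2 adjusted p = 0.0442). In cells of 5000 to 10000 UMIs, a window chosen after the data were seen, the edgeR test called mt:lrRNA with a log2 change of −0.82 ± 0.096 (adjusted p = 0.000149). No other mitochondrial transcript of 23 tested was called. The count over all genes in this window is not reported here, so these calls have no background beside them.

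Cells with many pgc UMIs were examined because polar granule component (pgc) encodes a small protein that keeps pole cells, the germline precursors, transcriptionally silent. They were cells of at least 3000 UMIs with at least 3 pgc UMIs after thinning to 3000, which gave 187 cells in 7 libraries (10 to 42 each, 3.69% ± 0.76 of cells), set against 4621 cells with no pgc UMI. Summed over 5 pole cell markers not used for the gate (nos, osk, gcl, ovo and zpg), they had 776 CPM (287 to 1202) against 48.3 CPM (43.9 to 52.2), and none of the 5 was at 0. Markers of the posterior were also higher, at 675 CPM (470 to 1072) against 284 CPM (212 to 348), while those of mesoderm were lower, at 605 CPM (257 to 1087) against 1432 CPM (1194 to 1722), and those of the ventral neurogenic ectoderm too, at 402 CPM (261 to 588) against 930 CPM (810 to 1192). The part of these other cells in the results was not tested. Fewer mitochondria per cell and less RNA per mitochondrion cannot be told apart by shares of UMIs.

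Mitochondrial transcripts took 10.4%, 10.4%, 13.8%, 9.98%, 12.1%, 11.5% and 12.5% of UMIs in the pgc-high cells of replicates 1 to 7. They took 12.3%, 11.1%, 13.3%, 13.8%, 14.3%, 12.1% and 13.5% in the pgc-negative cells of the same libraries. The share was lower in pgc-high cells in 6 of 7 libraries, all but replicate 3. The mean log2 ratio was −0.17 ± 0.17 (SD, n = 7, two-sided exact sign-flip test, p = 0.0313, adjusted over 3 gate comparisons 0.0938). With every cell thinned to 3000 UMIs it was lower in 7 of 7 libraries, by −0.26 ± 0.16 (exact sign-flip test, p = 0.0156, the smallest possible, adjusted 0.0469). Without mt:lrRNA the log2 ratio of the other 36 genes was −0.06 ± 0.20 with all UMIs counted (p = 0.328, same exact test). With thinned counts it was −0.20 ± 0.17, lower in 6 of 7 libraries (p = 0.0313, exact sign-flip test, unadjusted). It was −0.30 ± 0.24 in cells of 3000 to 10000 UMIs and −0.14 ± 0.075 with at least 5 pgc UMIs per thinned cell. Both were lower in 7 of 7 libraries (p = 0.0156 each, same exact test, unadjusted). Median depth with all UMIs was 4473 to 12218 UMIs in pgc-high and 6422 to 11800 in pgc-negative cells.

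By gene, edgeR's quasi-likelihood F test with library as block called 7 of 29 mitochondrial transcripts, all 7 lower in pgc-high cells and none higher. Of the 7423 genes tested, 19.1% were called lower and 17.9% higher, so the count of lower calls in this fit lay near the background. The median log2 change was −0.21 over the 29 and −0.08 over all genes. mt:lrRNA took 5.80%, 5.85%, 8.92%, 6.06%, 7.51%, 5.04% and 7.74% of UMIs in the pgc-high cells of replicates 1 to 7, and 6.71%, 6.4%, 8.35%, 8.91%, 9.49%, 6.90% and 8.52% in pgc-negative cells. It fell by 0.40 ± 0.055 on the log2 scale (SE, edgeR adjusted p = 3.57e-06), with lower shares in all libraries but replicate 3.

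A further 6 mRNAs, from complexes I, III and IV, fell as well, in the same edgeR fit. The fit scaled library totals by TMM normalisation and CPM are not scaled so, and fitted changes therefore differ from changes in CPM. mt:Cyt-b fell by 0.27 ± 0.055 on the log2 scale (adjusted p = 0.000494). Its CPM were 10134 ± 1404 in pgc-negative and 9357 ± 1322 in pgc-high cells (SD, n = 7), lower in 6 of 7 libraries. The oxidase subunits mt:CoII, mt:CoI and mt:CoIII fell by 0.25, 0.23 and 0.22 on the log2 scale (adjusted p = 0.00281, 0.0122 and 0.00842). mt:ND1 and mt:ND6 fell by 0.24 and 0.21 on the log2 scale (adjusted p = 0.0389 and 0.0363). In mean CPM these falls were smaller, such as 7530 to 7184 for mt:CoI, 1904 to 1853 for mt:ND1 and 728 to 697 for mt:ND6. All 13 protein-coding genes had negative log2 changes in this fit, but mean CPM was higher in pgc-high cells for 3 of them (mt:ND4, mt:ND5 and mt:ATPase8), which also lay above 0 in the fit without the library block. Among the 13 were mt:ATPase6 at −0.18 ± 0.073 (adjusted p = 0.0501) and mt:ND5 at −0.07 ± 0.092 (adjusted p = 0.594), which did not pass. Replicate 6, with 10 pgc-high cells, stood apart with a log2 ratio of 0.31 for the 36 genes other than mt:lrRNA. Without it 14 of 27 transcripts were called lower, where 1449 of 7328 genes were. Without replicate 4 the count was 4 of 29, where 1321 of 7341 genes were called lower. With 1 library left out, mt:ND1 passed only without replicate 6 (adjusted p up to 0.173 otherwise). mt:ND6 was lost without replicate 2, 4, 5 or 7, and mt:CoI without replicate 4, while mt:lrRNA, mt:Cyt-b, mt:CoII and mt:CoIII were called whichever library was left out (adjusted p up to 0.0456).

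The counts of called transcripts moved with the handling of depth. With thinned counts 16 of 20 were called lower, where 1164 of all 5364 genes were. In cells of 3000 to 10000 UMIs it was again 16 of 20, where 1291 of 5053 genes were, and with at least 5 pgc UMIs per thinned cell 16 of 29, where 2169 of 7379 genes were. DESeq2 called 2 of 29 lower, where 1096 of 7423 genes were. Without the library block edgeR called 1 of 25 lower, where 1125 of 6547 genes were. No mitochondrial transcript was called higher in any of these fits.

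**Figure D3:**
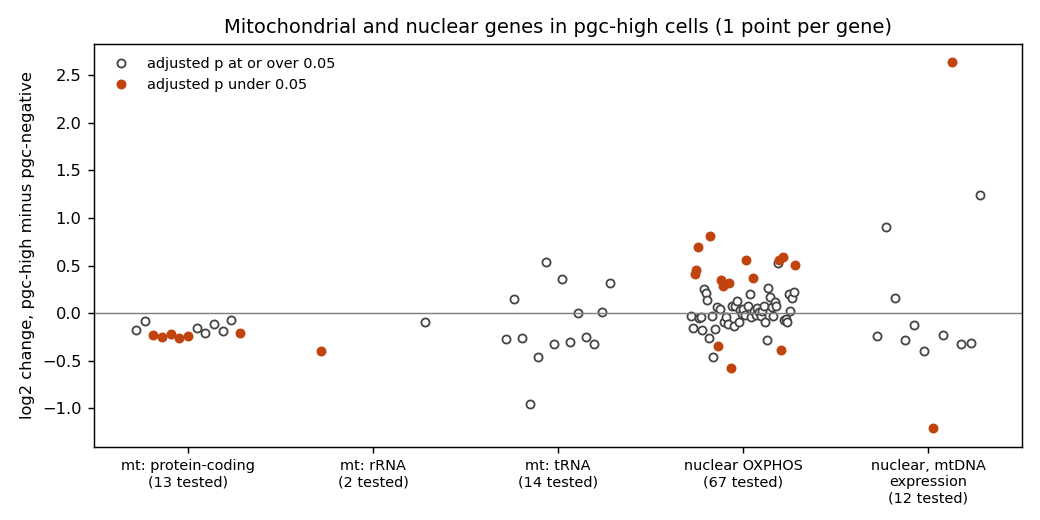
Log2 change in pgc-high minus pgc-negative cells from edgeR's quasi-likelihood fit with library as block, 1 point per gene, filled where the adjusted p was under 0.05. All 13 mitochondrial protein-coding genes lie below 0 in this fit, 3 of them above 0 without the library block. Of the 15 nuclear OXPHOS genes called, 12 lie above 0.

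Of 67 nuclear genes of oxidative phosphorylation (OXPHOS) tested in pgc-high cells, edgeR called 12 higher and 3 lower, where 17.9% of all genes were called higher and 19.1% lower, so the count of higher calls lay at the background. The median log2 change was 0.04 over the list and −0.08 over all genes. The difference between the nuclear and mitochondrial lists was not tested. The 4 genes with the smallest adjusted p code for ATP synthase subunits, but other subunit genes of that enzyme did not pass, such as ATPsyn-b at −0.16 ± 0.088 (adjusted p = 0.169) and Oscp at −0.03 ± 0.084 (adjusted p = 0.793). CG1746 (ATPsynC, the membrane ring subunit) rose by 0.81 ± 0.099 on the log2 scale (edgeR adjusted p = 5.23e-07). Its CPM were 507 ± 37.8 in pgc-negative and 1000 ± 205 in pgc-high cells. ATPsyn-gamma rose by 0.69 ± 0.11 (adjusted p = 1.69e-05), blw (the alpha subunit) by 0.59 ± 0.099 (adjusted p = 4.55e-05) and ATPsyn-d by 0.45 ± 0.099 (adjusted p = 0.000762), each in 7 of 7 libraries. Of 12 genes for copying and expressing mitochondrial DNA, edgeR called 1 higher and 1 lower, against the same 17.9% and 19.1% over all genes. mtRNApol, the mitochondrial RNA polymerase, measured 0.703 ± 0.34 CPM in pgc-negative and 4.61 ± 4.5 CPM in pgc-high cells. Its log2 change was 2.64 ± 0.66 (edgeR adjusted p = 0.00273), higher in 5 of 7 libraries, a call lost without replicate 3. Its counts were low, and it may have passed the count filter only through the pgc-high cells, so this call is weak. mTerf5, a transcription termination family member, fell from 25.5 ± 1.18 to 13.0 ± 9.08 CPM (log2 change −1.21 ± 0.31, adjusted p = 0.00343, lower in 7 of 7).

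Ventral cells, in which the mesoderm regulators twi and sna both had a UMI, were set against dorsal cells, which had UMIs from 2 or more of tup, ush, zen and the Doc genes Doc1, Doc2 and Doc3. Cells with a UMI from the opposite gate were left out. There were 459 and 702 cells. The 5 mesoderm markers not in the gate summed to 2925 CPM in ventral and 284 CPM in dorsal cells, and the 4 dorsal ones to 16.6 and 699 CPM. Mitochondrial transcripts took 11.9%, 10.4%, 12.2%, 12.2%, 12.5%, 12.0% and 12.6% of UMIs in the ventral cells of replicates 1 to 7. They took 11.5%, 11.2%, 13.1%, 13.3%, 13.6%, 11.7% and 13.3% in the dorsal cells. Replicates 1 and 6 were higher in ventral cells and the other 5 lower, with a mean log2 ratio of −0.06 ± 0.076 (SD, n = 7, two-sided exact sign-flip test, p = 0.0781, adjusted 0.117).

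edgeR's quasi-likelihood F test called 2 of 24 mitochondrial transcripts between ventral and dorsal cells, where 24.9% of 6138 genes were called. mt:lrRNA fell in ventral cells by 0.11 ± 0.024 on the log2 scale (edgeR adjusted p = 0.000678), lower in 6 of 7 libraries, and mt:tRNA:K, at 17.1 ± 8.80 against 11.0 ± 5.53 CPM, rose by 0.58 ± 0.21 (adjusted p = 0.0452). Ventral cells were deeper, with library medians of 7639 to 23295 UMIs against 6080 to 11053. In cells of 3000 to 10000 UMIs no mitochondrial transcript of 17 was called, nor was one at an unadjusted p under 0.05, and mt:lrRNA measured −0.06. mt:tRNA:K was no longer past the threshold without replicate 1, 2, 5, 6 or 7 (adjusted p 0.0678 to 0.199) or in DESeq2. No protein-coding mitochondrial gene of the 13 passed, although all 13 had positive log2 changes, with a median of 0.05 against 0.01 over all genes. Without replicate 6 only 11 of the 13 were positive, and mt:ATPase8 was called higher without replicate 5. With thinned counts 3 of the 13 were called higher, which were mt:ATPase6, mt:ATPase8 and mt:ND1. In cells of 3000 to 10000 UMIs 7 of the 13 were positive.

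The nuclear OXPHOS list gave 9 genes called higher and 1 lower of 66 tested in ventral cells, where 12.0% of all genes were called higher and 13.0% lower. In cells of 3000 to 10000 UMIs 0 of 62 were called (5 at an unadjusted p under 0.05), with thinned counts 2 of 64 and without the library block 2 of 66. In the same edgeR fit blw rose by 0.26 ± 0.053 on the log2 scale (adjusted p = 0.000439), Cyt-c-p, the cytochrome c gene, by 0.19 ± 0.044 (adjusted p = 0.00163), CG32230 (ND-MLRQ, a complex I subunit) by 0.18 ± 0.042 (adjusted p = 0.00209) and CG3560 (UQCR-14, a complex III subunit) by 0.21 ± 0.053 (adjusted p = 0.00335). Of 8 genes for mitochondrial DNA expression 1 was called, TFAM, which packages the DNA, at 82.1 ± 13.1 against 69.1 ± 9.84 CPM (log2 change 0.26 ± 0.091, edgeR adjusted p = 0.0355). TFAM was not called by DESeq2, without the filter on low counts, without the block, with thinned counts, at 3000 to 10000 UMIs, with the stricter gate, or without replicate 2, 3, 4 or 6.

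Posterior cells, with UMIs from 2 or more of cad, byn and Abd-B, and anterior cells, with UMIs from 2 or more of btd, oc, hbn and ems, were few. Both gates held at least 3 cells in 5 libraries, 49 and 52 cells in all. Posterior markers outside the gate summed to 332 CPM in posterior and 274 CPM in anterior cells, and 1 of the 4 was at 0 in posterior cells. The 1 head marker outside the gate, tll, had 24.4 CPM (0 to 48.3) in posterior and 19.8 CPM (0 to 36.2) in anterior cells. Markers of the ventral neurogenic ectoderm summed to 737 CPM in posterior and 1335 CPM in anterior cells. Those of mesoderm summed to 605 and 580 CPM, and those of dorsal ectoderm and amnioserosa to 434 and 408 CPM. Pole cell markers summed to 56.5 CPM in posterior and 145 CPM in anterior cells. Beyond the gating genes the separation was thus slight for posterior cells. For anterior cells it could not be judged, because 1 head marker with so few counts cannot show it either way. The part of this mixture in the results was not tested. Mitochondrial transcripts took 10.9%, 10.2%, 14.2%, 14.0% and 18.4% of UMIs in the posterior cells of replicates 1, 2, 3, 4 and 7. They took 12.0%, 10.4%, 11.8%, 13.5% and 19.4% in the anterior cells. The mean log2 ratio of 0.01 ± 0.16 was smaller than its spread (two-sided exact sign-flip test, p = 0.875, adjusted 0.875, where 5 libraries allow no p under 0.0625). edgeR called 0 of 16 mitochondrial transcripts, where 6.89% of 1436 genes were called (3.55% higher and 3.34% lower). None of the 16 reached an unadjusted p of 0.05, a count of 0, and the count by DESeq2 was 0 as well. mt:lrRNA measured −0.01 ± 0.086 on the log2 scale (adjusted p = 0.998 by edgeR), and of the nuclear OXPHOS list 0 of 54 were called by edgeR, with 2 at an unadjusted p under 0.05.

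**Figure D4:**
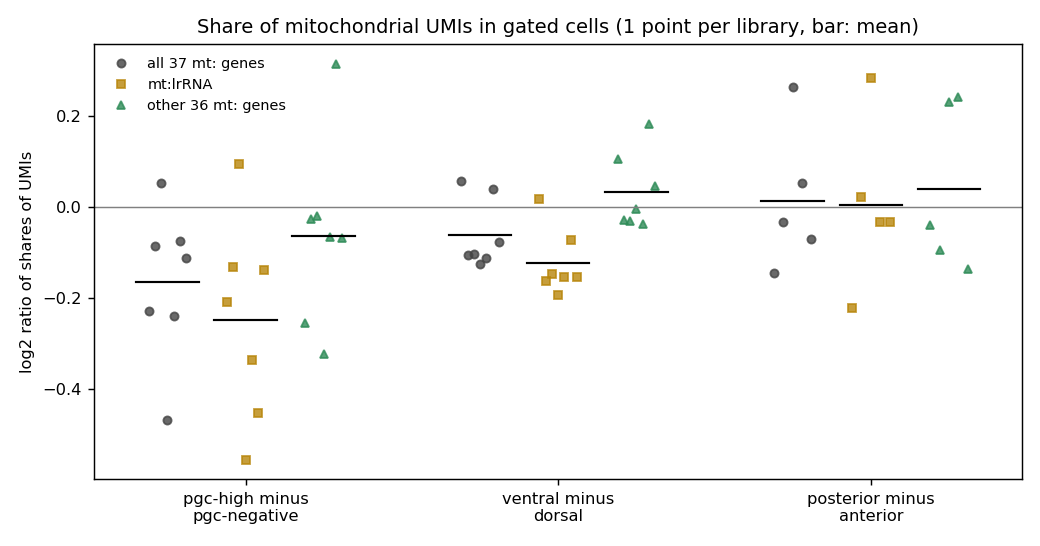
Log2 ratio of the share of UMIs between gated cells, 1 point per library with the mean as a bar, for all 37 mt: genes, for mt:lrRNA and for the other 36 genes. The means for all mt: genes are −0.17 in pgc-high against pgc-negative, −0.06 in ventral against dorsal and 0.01 in posterior against anterior cells.

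Cells of 1 library differed in mitochondrial counts beyond sampling. In cells thinned to 3000 UMIs, mt:lrRNA had a mean of 302 UMIs and a variance 53.8 times its mean, which left a coefficient of variation of 41.5% ± 2.82 after the counting variance was taken off (SD, n = 7). The same measure was 38.9% for mt:Cyt-b, 38.8% for mt:CoIII, 39.2% for mt:CoII, 45.6% for mt:CoI and 48.4% for mt:ATPase6. It was 57.4% for mt:ND1 and 56.9% for mt:ND3, and between 42.0% and 45.1% for mt:ND2, mt:ND4, mt:ND5, mt:ND6 and mt:ATPase8. It reached 65.2% for mt:srRNA. The variance-to-mean ratio of mt:CoI was 5.98, where genes of like mean had a median of 1.64, and those of mt:CoII and mt:CoIII lay at percentiles 95.2 and 95 of such genes. That of mt:ND6 lay at percentile 53.7, of mt:ND2 at 57.6, of mt:ATPase8 at 58.7, of mt:ND5 at 63.8 and of mt:ND4 at 70.5. The spread of these genes was thus nearer the middle of genes of like mean. mt:ND3 lay at percentile 79.9, mt:srRNA at 83.8 and mt:ND1 at 89.5.

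Mitochondrial mRNAs varied together between cells. Spearman's rho in thinned cells averaged 0.74 between mt:ATPase6 and mt:CoI, 0.69 between mt:Cyt-b and mt:CoIII and 0.65 between mt:lrRNA and the sum of all other mitochondrial genes. The lowest average with mt:lrRNA among the genes compared was 0.18, for mt:tRNA:A. Nuclear genes were compared with the mitochondrial count in the same cells, 1536 of them with a median rho of −0.08. The highest were the ribosomal protein genes RpL41 (0.50), RpLP1 (0.42), RpS25 (0.38), RpL13A (0.34) and RpL40 (0.33). The lowest were Df31 (−0.60), smt3 (−0.55), HmgD (−0.55), 14-3-3epsilon (−0.55) and His4r (−0.53), which include chromatin proteins and a histone. All cells were thinned to 1 total, so a higher mitochondrial count leaves fewer UMIs for other genes, and these values are descriptions without a test.

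Bulk RNA of whole embryos gave a lower mitochondrial share. It was 6.07% of reads on genes against 13.1% in Drop-seq, a ratio of 2.15 (1.86 to 2.34 over the 7 libraries). The 13 protein-coding genes took 1.54% of bulk reads and 4.89% ± 0.32 of UMIs, a ratio of 3.17, and mt:lrRNA 4.53% and 8.07%, a ratio of 1.78. There was 1 bulk library, so no test was made. Bulk reads are counted along the whole transcript of living embryos without strand, and UMIs at 3′ ends in fixed cells. These differences in method and a difference in RNA content cannot be told apart, nor in bulk can fewer cells of a type and less RNA per cell.

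By transcript, on the scale of log2(CPM + 1), 11 of 13 protein-coding genes were higher in Drop-seq, with a median of 1.41, while the median over 2015 genes with at least 100 CPM was −1.06 and 24.7% of them were above 0. mt:ATPase6 differed by 3.31 ± 0.068 (SD over 7 libraries), at 9860 ± 458 CPM against 990 in bulk. mt:ND6 (3.18) and mt:ND3 (3.10) differed almost as much. mt:ND5 and mt:ND4L were lower in Drop-seq, by −0.17 ± 0.33, within the spread, and by −0.97 ± 0.38. mt:ND4L was lower in all 7 libraries, and mt:ND5 ranged from −0.73 to 0.28.

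The order of the 13 protein-coding genes was partly shared. Spearman's rho between a Drop-seq library and bulk averaged 0.80 ± 0.034 on CPM. It was lower, at 0.64 ± 0.034, when the bulk levels were taken per kilobase. Between Drop-seq libraries it was 0.88 to 0.99. Per kilobase, mt:lrRNA led the bulk levels (34214 CPM per kb), followed among mRNAs by mt:CoI (3132), mt:CoIII (3057), mt:ATPase8 (1815) and mt:Cyt-b (1754). mt:srRNA had 161 bulk reads (24.4 CPM, exact 95% Poisson interval 20.7 to 28.4, counting error only) against 632 CPM in Drop-seq. mt:tRNA:A had 1 bulk read (0.151 CPM, 0.00383 to 0.843) against 205 CPM, and mt:tRNA:K and mt:tRNA:R were listed at 0, where 15.3 and 14.6 CPM were measured in Drop-seq.

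**Figure D5:**
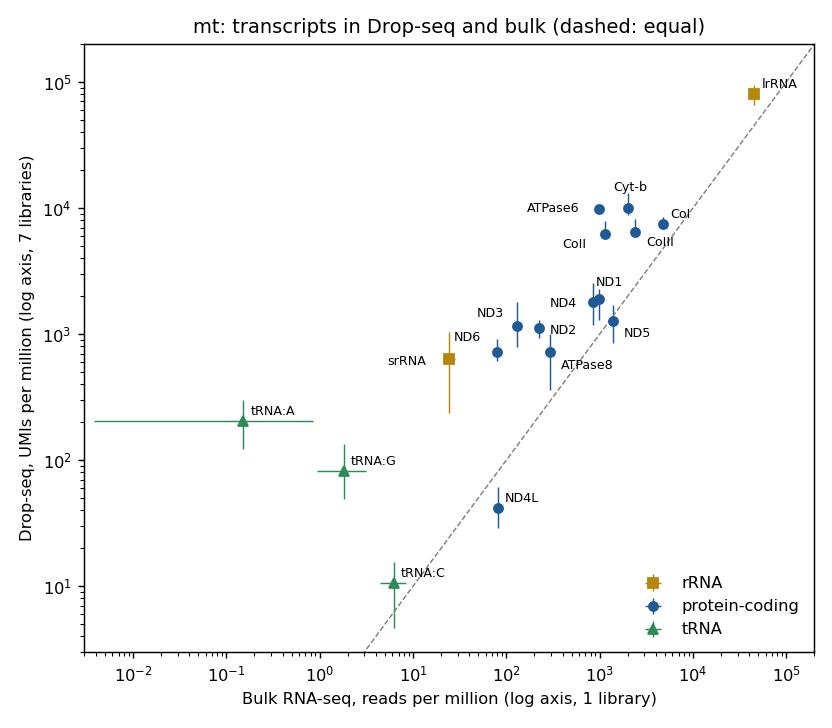
CPM in Drop-seq (mean and range of 7 libraries) against CPM in the bulk library (exact 95% Poisson interval), both on log axes, for the transcripts with at least 10 CPM and a bulk read, which leaves out mt:tRNA:K and mt:tRNA:R. All protein-coding genes but mt:ND5 and mt:ND4L lie above the dashed line of equal values, and mt:tRNA:A lies farthest above it.

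UMIs placed on *D. melanogaster* mitochondrial genes were also counted in the *D. virilis* cells of the mixed-species libraries. Of 1879 and 1002 such cells, 99% and 98.3% had at least 1 such UMI, with a median of 9 and 8 at median depths of 3543 and 6136 UMIs, whereas 100% of *D. melanogaster* cells had one at median depths of 4323 and 6307. They were 0.228% and 0.109% of all UMIs in these cells. Among the *D. melanogaster* UMIs found in *D. virilis* cells, mitochondrial ones made up 7.22% (exact 95% binomial interval 7.13 to 7.31, counting error only) and 6.19% (6.08 to 6.31), less than the 12.5% and 11.3% in *D. melanogaster* cells of the same libraries. mt:lrRNA formed 58.6% and 61.9% of them, against 55.1% and 58.1% in *D. melanogaster* cells. Whether these UMIs were free RNA or *D. virilis* molecules placed on *D. melanogaster* genes was not tested.

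The authors' table of 1297 chosen cells holds 10154 genes and none of the 37 mitochondrial ones. In the full tables these cells had a lower mitochondrial share than other *D. melanogaster* cells of at least 3000 UMIs in every library, for example 10.2% against 12.6% in replicate 1, 12.1% against 15.3% in replicate 3 and 11.9% against 12.4% in replicate 6. The chosen cells were also deeper, with median depths of 17405 against 6016 UMIs in replicate 1 and 29735 against 7483 in replicate 6. mt:lrRNA took 5.20% of their UMIs against 6.98% in replicate 1, and the other mitochondrial genes 4.97% against 5.62%. In replicate 6 the latter were 5.30% against 5.12%, the opposite order.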

How the data were processed

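The deposited Drop-seq tables hold raw counts of UMIs per gene and barcode, and the deposited bulk tables raw read counts per gene. Per the submitters' processing notes, STAR, HTSeq and the build BDGP6 were used, with roles and versions not given in the sources used here. Reads in the bulk table on no feature (45.2% of reads for D. melanogaster), not unique (10.1%) or ambiguous (0.728%) were left out. Gene positions were looked up by name in BDGP6.54. The members, gene lists, gates and tests were chosen with earlier results of these data known.

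A cell needed 1000 UMIs and 90% purity over genes other than mt: genes. Gates used cells of 3000 UMIs thinned to 3000 with a fixed seed. The genes described were the mt: coding genes, rRNAs and tRNAs with 10 CPM, and up to 4 nuclear list genes per comparison by smallest adjusted p. Doublets of 2 cells of the same species were not removed. Sums per library and gate were tested with edgeR 4.0.16 in R 4.3.3 (TMM, filterByExpr, quasi-likelihood F test, Benjamini-Hochberg over all genes, FDR 0.05), with the library as block because both gates come from the same libraries. Standard errors come from the F statistic. Gating genes were left out of counts. DESeq2 1.42.0 was an alternative. Shares were tested by exact permutation. The edgeR code was tested on simulated data. Cell-level steps ran in Python 3.11.15 with scipy 1.17.1.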

Additional observations from a re-analysis of the deposited data

Results flagged for a closer look

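The mitochondrial share of single-species replicate 6, at 12.1%, lay apart from the other 4 single-species libraries, which lay between 13.7% and 14.2%. It was the only such case in 32 groups of libraries examined. Chance flags about 1 group in 20, so 1 case among 32 groups is not more than chance gives. In replicate 6, 11.3% of cells had a share under 5%, against at most 3.25% in the other single-species libraries, and the median depth was the lowest of all at 1936 UMIs. The part of depth in it was not tested.

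Replicate 3, labelled as D. melanogaster only, held 29225 UMIs on D. virilis genes, where the other single-species libraries held 0. It entered the comparisons as labelled.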

How the results depend on the processing

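The mixed minus single difference in mitochondrial share was −1.64 points. It turned to 0.268 without both rRNA genes and to 0.251 without mt:lrRNA, and was −1.89 for mt:lrRNA alone and −5.55 in cells of 5000 to 10000 UMIs. Leaving out 1 library gave −2.24 to −1.04. Between these libraries DESeq2 called 1 mitochondrial transcript, edgeR without a filter on low counts 2, and edgeR at 5000 to 10000 UMIs 1. Over all genes, 30 were called without the filter and 21 without replicate 3, against 0. Without both rRNAs the share over libraries was 4.92% and the ratio to bulk 3.19.

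For pgc-high cells the log2 ratio was −0.26 with thinned counts, −0.32 at 3000 to 10000 UMIs and −0.25 for mt:lrRNA alone. With all UMIs counted it was −0.0642 without both rRNAs and −0.0632 without mt:lrRNA (p = 0.328 each, exact sign-flip test). Without mt:lrRNA it was −0.20 thinned, −0.30 at 3000 to 10000 UMIs and −0.14 with the stricter gate. Leaving out 1 library gave −0.20 to −0.12 for all mitochondrial genes. Called transcripts numbered 2 by DESeq2, 11 without the filter, 1 without the library block, 16 each with thinned counts, at 3000 to 10000 UMIs and with the stricter gate, and 4 to 14 with 1 library left out, against 7. All genes called numbered 2520 by DESeq2, 2761 without the filter, 2451 without the block, 2007 thinned and 2128 to 2806 with 1 library left out, against 2749. The ventral minus dorsal ratio turned to 0.0327 without both rRNAs and 0.0331 without mt:lrRNA, was −0.12 for mt:lrRNA alone, and −0.08 to −0.05 with 1 library left out. Called transcripts there numbered 1 by DESeq2 and with the stricter gate, 0 without the block and at 3000 to 10000 UMIs, 4 thinned, and 1 to 2 with 1 library left out, against 2. All genes called numbered 911, 768, 908, 386 and 636 under these settings, against 1529.

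The posterior minus anterior ratio was −0.0268 thinned and −0.0483 to 0.0537 with 1 library left out, negative without replicate 3. mt:lrRNA there was 0.00068 without the filter, 0.0899 at 3000 to 10000 UMIs and −0.0915 to 0.0745 with 1 library left out, positive without replicate 1 (0.0745), 4 (0.0284) or 7 (0.0286). All genes called numbered 146 without the filter, 48 without the block, 28 thinned and 16 at 3000 to 10000 UMIs, against 99. The stricter gate gave no value. The block stands for the library that both gates share. Shares compared without this pairing gave p = 0.0624 (pgc), 0.304 (ventral) and 0.944 (posterior) by permutation. The spread of mt:lrRNA was 46.3% thinned to 1000 and 37.03% at 3000 to 10000 UMIs, and the share in D. virilis cells of replicate 2 was 4.16% at 99% purity. The cause of these shifts was not tested. The comparisons of 5000 to 10000 UMIs, of mt:lrRNA alone and without it, of shares without the block and of the spread at 3000 to 10000 UMIs were added after seeing the data. In the libraries compared, 1 posterior or anterior gate held as few as 6 cells, and 5 libraries cannot reach a p under 0.0625 in the posterior comparison. PCR duplicates are removed only in the UMI counts, so bulk intervals cover counting error only.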
